A study of Homo sapiens with 36 samples.

Results

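CCND1, CCND3, CDK2, CDK4, CDK6, CDKN1B, RB1, E2F1, E2F2 and E2F7 encode core parts of the switch by which a cell leaves G1 for S phase. These 10 genes were taken by name out of 62757 genes counted in HCT-116 cells, a human colorectal carcinoma line, and each matched exactly 1 identifier. All 10 passed the filter on low counts, which asked for 64 or more raw counts on average in any of the groups and left 12356 genes for testing. The rule that names them uses no measured value, although the genes were picked with earlier results of these data known.

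PolyA RNA-seq gave 36 libraries, of which 24 formed 8 groups of 3 by their labels. Of these groups, 6 came from FBXW7-/- cells (KO), which lack the substrate-recognising subunit of a ubiquitin ligase: KO esiCT, with a control esiRNA, KO esiHDAC4, with an esiRNA against HDAC4, and KO #11, with a degrader of class IIa histone deacetylases on top of the control esiRNA. Each was kept for 48 h, either untreated or with oxaliplatin (OXPT), a platinum drug that crosslinks DNA, at 50 µM for the last 24 h. The remaining 2 groups were WT cells, untreated and with OXPT. The labels of these 6 WT libraries name different esiRNAs in different entries, so the esiRNA of WT is not settled, and a comparison of KO esiCT with WT cannot tell genotype and esiRNA apart. The dose of #11 is given as 1 µM in one label entry and as 10 µM in another. Whether the KO line is a single clone is not given in the sources used here. For 12 other WT libraries the labels contradict each other on OXPT, and these entered no comparison.

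In G1, growth signals raise the D-type cyclins, which activate CDK4 and CDK6. These kinases, and later CDK2 with cyclin E, phosphorylate the RB protein and so release the activating E2F factors, which switch on genes for DNA replication. CDKN1B (p27) and CDKN1A (p21) are inhibitors of the cyclin-CDK complexes, and p21 is induced by p53 after DNA damage. E2F1 and E2F2 are activators that also act on their own promoters, whereas E2F7 is an atypical family member that represses. Much of this circuit is set by phosphorylation and protein turnover, which RNA-seq does not see.

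The promoters of the E2F genes are shown because E2F2 carried most of the calls below. Each is the 250 bases before the start of the gene on GRCh38.p14 from RefSeq, read 5′ to 3′ on the minus strand, at chr20:33686386-33686635 for E2F1, chr1:23531234-23531483 for E2F2 and chr12:77065570-77065819 for E2F7. Capitals mark matches to TTTCCCGC, TTTGGCGC, TTTCGCGC or TTTGCCGC, forms of the E2F site, on either strand.
E2F1: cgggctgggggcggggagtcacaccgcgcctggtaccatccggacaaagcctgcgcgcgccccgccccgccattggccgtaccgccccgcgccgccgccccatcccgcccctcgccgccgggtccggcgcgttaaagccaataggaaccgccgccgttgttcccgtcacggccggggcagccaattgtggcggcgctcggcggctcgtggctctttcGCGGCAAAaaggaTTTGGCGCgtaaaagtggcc
E2F2: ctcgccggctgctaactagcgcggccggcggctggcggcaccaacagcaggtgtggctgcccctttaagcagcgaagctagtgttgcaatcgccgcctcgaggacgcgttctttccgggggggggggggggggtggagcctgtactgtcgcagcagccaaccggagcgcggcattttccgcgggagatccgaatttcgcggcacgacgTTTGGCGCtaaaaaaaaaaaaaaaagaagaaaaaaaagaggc
E2F7: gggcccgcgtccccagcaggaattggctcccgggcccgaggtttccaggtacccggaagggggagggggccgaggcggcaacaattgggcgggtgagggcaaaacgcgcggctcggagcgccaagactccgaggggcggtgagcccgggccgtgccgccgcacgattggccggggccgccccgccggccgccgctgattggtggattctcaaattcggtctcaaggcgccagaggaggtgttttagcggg

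TTTGGCGC lay 42 to 35 bases before the start of E2F2 and 20 to 13 bases before the start of E2F1. In E2F1 it was preceded by GCGGCAAA, the opposite strand of TTTGCCGC, at 33 to 26 bases before the start. None of the 4 forms lay in the window of E2F7, which says only that these letters are not in it. Promoter windows that ran to 50 bases past the start were at hand for 8 of the 10 genes, 11 windows in all since CCND3 has 3 and CDK6 has 2, and CCND1 and CDK2 had none. Only the windows of E2F1 and E2F2 held any of the 4 forms, as did 3.31% of 35116 promoter windows. TTTGGCGC alone was in 0.652% and TTTGCCGC in 0.607% of all windows. The forms TTTCCCGC, in 1.63% of all windows, and TTTCGCGC, in 0.515%, were in none of the 11. Nor was TTTGAA, the core of the cell cycle homology region bound by the MuvB complexes, which was in 15.2% of all windows. The windows of RB1, CDK4, CDKN1B and CCND3 lie inside the span that GENCODE gives these genes, so they may not be the promoter in use. The same holds for the CDK6 window next to chr7:92833960-92834209.

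The depth of the 24 libraries was 10725966 to 20527222 counts on genes (median 14510758). Levels are given as CPM, counts scaled to library size after TMM normalization, and fold changes, standard errors (SE) and adjusted p come from the quasi-likelihood F test of edgeR with Benjamini-Hochberg adjustment over all 12356 genes. A gene was called at an adjusted p under 0.05 with a fold change over 1.5. The labels do not say whether the 3 libraries of a group came from separate cultures, so the p-values measure the spread between these libraries only. The epithelial markers EPCAM, KRT8, KRT18, KRT19, CDH1 and CDX2 were all detected in every library, whereas VIL1 stayed at or under 0.481 CPM. Of the markers of other cells, PTPRC, COL1A2 and PECAM1 stayed at or under 0.792 CPM, and COL1A1, a fibroblast marker, was at 25.1 to 77.6 CPM. HDAC4 mRNA after silencing was at 8.9, 8.8 and 14.9 CPM in untreated cells, against 18.4, 14.0 and 24.9 CPM in KO esiCT. The groups thus overlapped, and the log2 fold change of -0.82 (SE 0.24) had an adjusted p of 0.561. With OXPT, HDAC4 stood at 4.1, 3.3 and 4.2 CPM against 6.3, 5.7 and 7.5 CPM, with no overlap and an adjusted p of 1. With #11 and OXPT it was at 18.5, 16.9 and 14.5 CPM, called higher than in KO esiCT (1.36, adjusted p = 0.0383). The transcripts of FBXW7 and HDAC4 do not check the knockout or the degrader, which acts on protein.

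Because exons shared with a neighbour on the other strand lose their reads in unstranded counting, levels between genes are compared as CPM per kb of unshared exon sequence. On that scale CCND1, the main D-type cyclin here, had group means of 86.1 to 153, above all others. CDK4, with 32.2 to 69.4, and CDK2, with 21.1 to 25, came next, and E2F1 stood at 9.65 to 18.1. The others lay between 2.11 and 15.2 CPM per kb, with CCND3 at 5.77 to 15.2, CDK6 at 3.09 to 7.47, CDKN1B at 3.09 to 6.52, E2F2 at 2.11 to 6.31, E2F7 at 2.31 to 5.71 and RB1 at 2.41 to 5.05. The ranges of the last 5 overlapped, so no order can be read among them. Of the 2 kinases of cyclin D, CDK4 was thus the higher in every group. Across the 8 groups the level of E2F2 varied most, with a ratio of 2.99 between the highest and the lowest group mean, and that of CDK2 least, with 1.18.

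**Figure D1:**
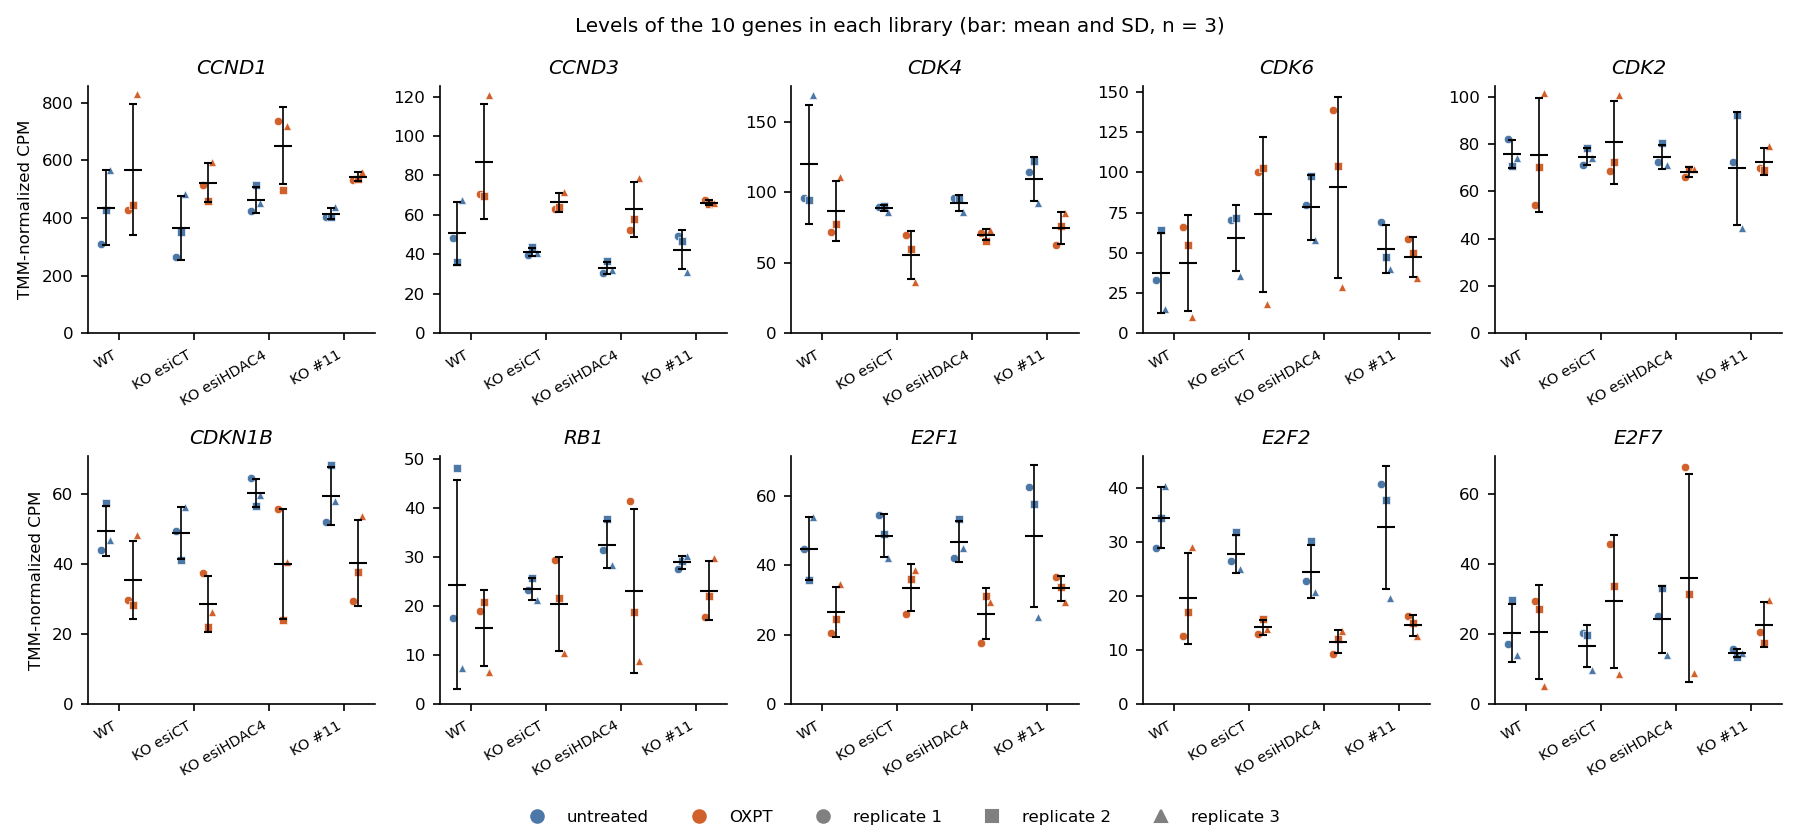
Levels of the 10 genes as TMM-normalized CPM (y axis, linear from 0) in each of the 24 libraries, by arm (x axis) without OXPT (blue) and with OXPT (orange); point shapes give the replicate number, and bars the mean and SD of 3 libraries. E2F2 fell from 24.9 to 31.8 CPM to 13 to 15.6 CPM in KO esiCT, and replicate 3 of CDK6 lies lowest in all 8 groups.

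The main comparison asked which of these genes changed with OXPT in each arm. E2F2 was lower in all 3 KO arms and CCND3 was higher in KO esiHDAC4 and WT, and these were the 5 calls among 40 values. E2F2 fell by 0.97 to 1.16 on the log2 scale in the KO arms. CCND3 rose by 0.93 and 0.78 on the log2 scale where it was called. Among all genes, 6.23% were called higher and 5.08% lower in KO esiCT, 6.44% and 5.54% in KO esiHDAC4, 5.94% and 3.57% in KO #11, and 5.1% and 5.6% in WT. Members called were 1 of 10 in KO esiCT, KO #11 and WT and 2 of 10 in KO esiHDAC4. These shares lie close to that background. DESeq2 called 3, 3, 1 and 2 members, where it called 15%, 15.2%, 12.6% and 13.9% of all genes. Groups did not overlap for 5 of 10 genes in KO esiCT against 30.1% of all genes, for 6 against 35.4% in KO esiHDAC4, for 5 against 42.5% in KO #11 and for 2 against 21.3% in WT.

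**Figure D2:**
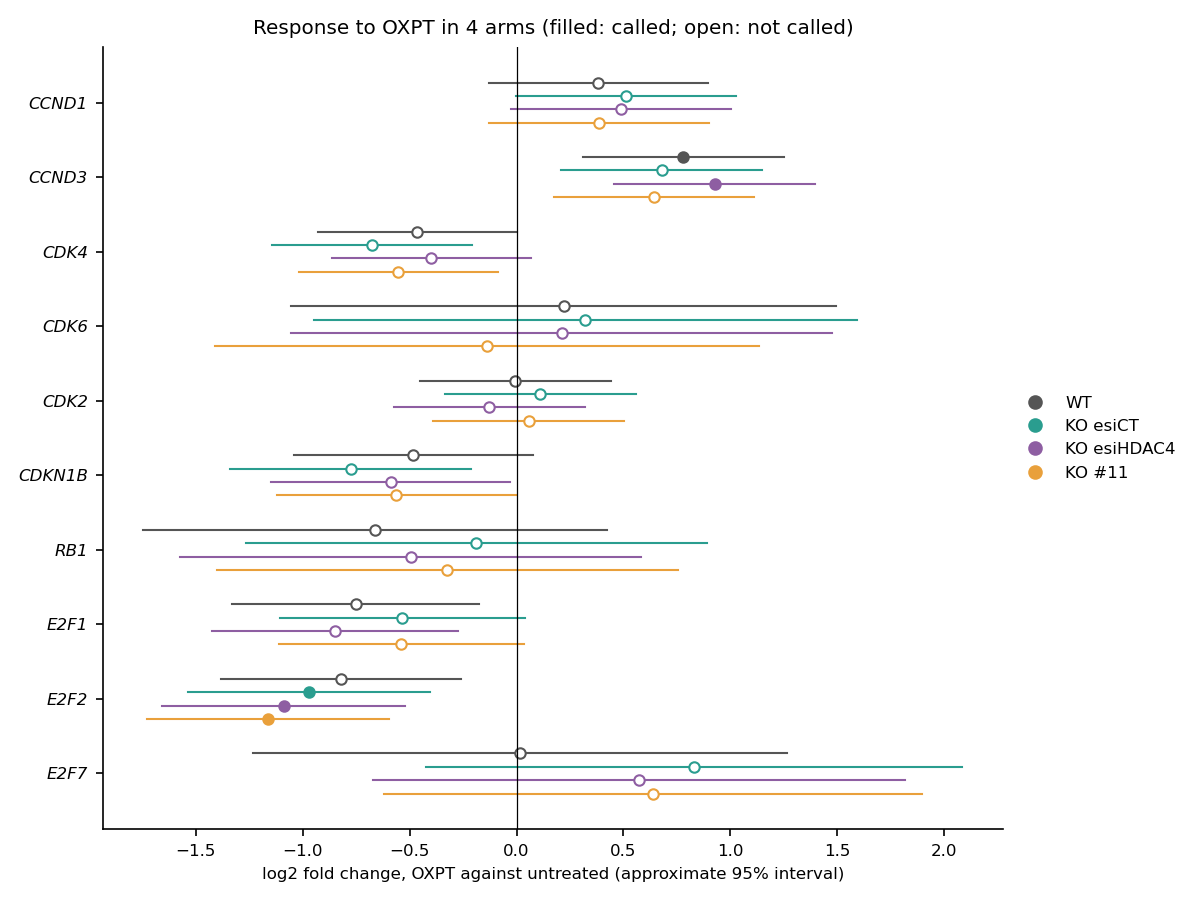
Log2 fold change of the 10 genes with OXPT against untreated (x axis) in WT, KO esiCT, KO esiHDAC4 and KO #11, as points with approximate 95% intervals; filled points were called by edgeR. E2F2 lies at -0.82 to -1.16 and CCND3 at 0.64 to 0.93, whereas the intervals of CDK6, RB1 and E2F7 cross 0 in all 4 arms.

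Among the E2F factors, the activator E2F2 (ENSG00000007968.7, chr1:23506438-23531233, minus strand) showed the steadiest difference. In KO esiCT its level was 26.4, 31.8 and 24.9 CPM untreated and 13, 15.6 and 13.8 CPM with OXPT, a log2 fold change of -0.97 (SE 0.29, adjusted p = 0.0333). With HDAC4 silenced it was 22.7, 30.03 and 20.7 CPM untreated and 9.18, 11.9 and 13.5 CPM with OXPT (-1.09, SE 0.29, adjusted p = 0.0173). In KO #11 it was 40.6, 37.6 and 19.7 CPM untreated and 16.3, 15.0 and 12.5 CPM with OXPT (-1.16, SE 0.29, adjusted p = 0.0139). Every untreated library lay above every OXPT library in these 3 arms, and replicate 3 of KO #11 untreated was the lowest of its group. In WT, E2F2 stood at 28.9, 34.3 and 40.2 CPM untreated and at 12.6, 17.0 and 29.0 CPM with OXPT, so that replicate 3 with OXPT reached just above the lowest untreated library. There the log2 fold change was -0.82 (SE 0.29) with an adjusted p of 0.0715, and it was not called. Libraries of the same replicate number showed a lower E2F2 with OXPT in 3 of 3 pairs in every arm, by 0.47 to 1.32 on the log2 scale.

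The calls for E2F2 depended on single libraries. In KO esiCT the call was lost whenever any 1 of its 6 libraries was left out (log2 fold change -1.07 to -0.88, adjusted p = 0.0517 to 0.115). The call for E2F2 in KO esiHDAC4 was lost without replicate 1 or 2 with OXPT (-0.94, adjusted p = 0.064, and -1.12, 0.0554) or replicate 2 untreated (-0.92, 0.0905). In KO #11 it was lost without replicate 1 or 2 untreated (-1.002, adjusted p = 0.0782, and -1.06, 0.065) or replicate 2 or 3 with OXPT (-1.18, 0.0527, and -1.06, 0.0505). The log2 fold change of E2F2 itself stayed between -1.23 and -0.92 in KO esiHDAC4 and between -1.45 and -1.002 in KO #11 when any 1 of the 24 libraries was left out. In WT, E2F2 was called without replicate 3 with OXPT (-1.22, adjusted p = 0.0128), and also by DESeq2 (-0.88, adjusted p = 0.0234) and with reverse-strand counts (-0.89, adjusted p = 0.0468).

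E2F1 (ENSG00000101412.13, chr20:33675477-33686385, minus strand), the other activator, was lower with OXPT in all 4 arms but was called in none. In KO esiCT it was at 54.5, 49.1 and 42.1 CPM untreated and 26.0, 36.1 and 38.6 CPM with OXPT, without overlap (-0.53, SE 0.29, adjusted p = 0.261). In KO esiHDAC4 the levels were 42.0, 53.3 and 44.9 CPM untreated and 17.5, 31.0 and 29.4 CPM with OXPT, again without overlap (-0.85, SE 0.29, adjusted p = 0.0649). In WT they were 44.7, 35.7 and 53.8 CPM untreated and 20.5, 24.5 and 34.6 CPM with OXPT (-0.75, SE 0.29, adjusted p = 0.108), without overlap. In KO #11, replicate 3 set the overlap. E2F1 was at 62.5, 57.7 and 25.1 CPM untreated and at 36.7, 33.9 and 29.5 CPM with OXPT (-0.54, SE 0.29, adjusted p = 0.28). Without replicate 3 of KO #11 untreated it was called lower there (-0.88, adjusted p = 0.0496), and so it was in KO esiHDAC4 (-0.86, adjusted p = 0.024). In KO esiHDAC4, E2F1 was also called without replicate 3 of WT untreated (-0.86, adjusted p = 0.0487), a library of neither group compared.

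E2F7 (ENSG00000165891.16, chr12:77021248-77065569, minus strand), the repressor, was not called in any arm. Its levels in KO esiCT were 20.4, 19.7 and 9.7 CPM untreated and 45.6, 33.8 and 8.57 CPM with OXPT (0.83, SE 0.64, adjusted p = 0.444). In KO esiHDAC4 they were 25.2, 33.2 and 14.1 CPM untreated and 67.6, 31.5 and 8.71 CPM with OXPT (0.57, SE 0.64, adjusted p = 0.625). Replicate 3 was thus the lowest under OXPT in both arms. Between libraries of the same replicate number, E2F7 was higher with OXPT in 2 of 3 pairs in KO esiCT. In KO esiHDAC4 it was higher in 1 of 3, the pair of replicate 1. In KO #11, E2F7 was 15.6, 13.3 and 14.6 CPM untreated and 20.5, 17.5 and 29.8 CPM with OXPT, higher in 3 of 3 pairs without overlap (0.64, SE 0.64, adjusted p = 0.596). In WT it was 17.1, 29.7 and 14.0 CPM untreated and 29.4, 27.1 and 5.19 CPM with OXPT (0.02, SE 0.64, adjusted p = 0.992).

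Among the cyclins, CCND3 (ENSG00000112576.13, chr6:41934934-42050357, minus strand) was higher with OXPT in every arm and without overlap in each. In WT it was 48.3, 36.1 and 67.7 CPM untreated and 70.5, 69.7 and 121 CPM with OXPT (0.78, SE 0.24, adjusted p = 0.0402, called). In the KO esiHDAC4 groups it was 30.8, 36.6 and 31.9 CPM untreated and 52.3, 58.0 and 78.7 CPM with OXPT (0.93, SE 0.24, adjusted p = 0.0145, called). Replicate 3 was the highest OXPT library in both. In KO esiCT, CCND3 stood at 39.7, 43.6 and 40.9 CPM untreated and 63.2, 64 and 71.8 CPM with OXPT (0.68, SE 0.24, adjusted p = 0.0711, not called). In KO #11 it was 49.2, 46.9 and 31.2 CPM untreated and 67.7, 65.4 and 65.8 CPM with OXPT (0.64, SE 0.24, adjusted p = 0.0976, not called). It was higher in 3 of 3 pairs of the same replicate number in each arm, by 0.46 to 1.30 on the log2 scale.

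The call for CCND3 in WT was close to the threshold. It was lost when any 1 of 12 libraries was left out, 9 of them from KO arms, and without replicate 3 with OXPT the log2 fold change of CCND3 was 0.47 (adjusted p = 0.289). Without replicate 1 or 2 of WT untreated it was 0.75 (adjusted p = 0.108) and 0.58 (0.187). The 9 KO libraries left CCND3 at 0.75 to 0.78 with an adjusted p of 0.0503 to 0.0609. Its call in KO esiHDAC4 was lost without replicate 3 with OXPT (0.73, adjusted p = 0.097), replicate 1 untreated (0.83, 0.0844) or replicate 3 untreated (0.88, 0.063). In KO esiCT, CCND3 was called by DESeq2 (0.68, adjusted p = 0.0409), without replicate 3 of WT with OXPT (0.66, 0.0464) and without replicate 3 of WT untreated (0.67, 0.042).

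CCND1 (ENSG00000110092.4, chr11:69641156-69654474, plus strand) was not called in any arm. It was at 265, 351 and 485 CPM in KO esiCT untreated and 516, 458 and 594 CPM with OXPT, with replicate 3 untreated above replicate 2 with OXPT (0.51, SE 0.26, adjusted p = 0.227). In KO cells with esiHDAC4 it was 424, 514 and 453 CPM untreated and 736, 497 and 720.1 CPM with OXPT (0.49, SE 0.26, adjusted p = 0.251). In KO #11 the levels were tight, at 404, 403 and 438 CPM untreated and 531, 536 and 560.0 CPM with OXPT, without overlap (0.39, SE 0.26, adjusted p = 0.405). In WT they were 308, 428 and 568 CPM untreated and 427, 446 and 829 CPM with OXPT (0.38, SE 0.26, adjusted p = 0.4). CCND1 shares 10.4% of its exon bases with LTO1 on the opposite strand, but its unstranded count held only 0.593 of the sum of both strand columns. On reverse-strand counts CCND1 was at 720, 680 and 1466 CPM in KO esiCT with OXPT, and its log2 fold change there was 0.89 (adjusted p = 0.0846). Since the reads carry no strand, that column also takes reads of LTO1 from the shared stretch. CCND1 and LTO1 cannot be told apart there.

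Of the kinases, CDK4 (ENSG00000135446.17, chr12:57747727-57756013, minus strand) was lower with OXPT in all 4 arms and was not called. It was at 89.6, 90.4 and 86.4 CPM in KO esiCT untreated and 69.8, 59.8 and 36.8 CPM with OXPT, replicate 3 being the lowest (-0.68, SE 0.24, adjusted p = 0.0711). KO esiHDAC4 had 96.0, 95 and 85.9 CPM untreated and 71.2, 65.7 and 73.2 CPM with OXPT (-0.40, SE 0.24, adjusted p = 0.31). In KO #11 it was 114, 122 and 92.3 CPM untreated and 62.8, 76.4 and 85.1 CPM with OXPT (-0.55, SE 0.24, adjusted p = 0.158). The groups did not overlap in the KO arms. In WT they did, at 95.7, 94.8 and 169 CPM untreated and 71.6, 77.8 and 111 CPM with OXPT (-0.46, SE 0.24, adjusted p = 0.236). CDK4 was called in KO esiCT without replicate 1 of KO esiCT OXPT (-0.89, adjusted p = 0.0325) and by DESeq2 (-0.67, adjusted p = 0.0457). The same held for CDK4 without replicate 3 of WT OXPT or replicate 2 or 3 of WT untreated (adjusted p = 0.0464, 0.05 and 0.0315).

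CDK4 is the gene whose values depend most on how reads were assigned. TSPAN31, on the opposite strand, shares 44.2% of the exon bases of CDK4, and the unstranded count held 0.405 of the sum of both strand columns. The reverse-strand counts of CDK4 in KO esiCT were 191, 180 and 168 CPM untreated and 136, 148 and 235 CPM with OXPT, so that replicate 3, the lowest on unstranded counts, was the highest. The log2 fold change there was -0.05 (adjusted p = 0.922) against -0.68 on unstranded counts. It was -0.24, -0.41 and -0.55 in KO esiHDAC4, KO #11 and WT. Since the reads carry no strand, those from the shared stretch cannot be told apart between CDK4 and TSPAN31.

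CDK2 (ENSG00000123374.11, chr12:55966781-55972789, plus strand), the partner of cyclins E and A, was the steadiest of the 10. On unstranded counts its group means lay between 68.3 and 80.7 CPM, and its log2 fold changes with OXPT between -0.13 and 0.11. In KO esiCT it was at 71.3, 78.3 and 74.2 CPM untreated and 68.7, 72.6 and 101 CPM with OXPT, with an approximate 95% interval of -0.34 to 0.56. The lowest single library was replicate 3 of KO #11 untreated, at 44.6 CPM, and the highest replicate 3 of WT OXPT, at 102 CPM. The groups did not overlap in KO esiHDAC4, at 72.3, 80.5 and 71.0 CPM untreated and 65.9, 69.5 and 69.4 CPM with OXPT. PMEL and a long noncoding RNA on the opposite strand share 16.8% of the exon bases of CDK2. Its unstranded count held only 0.63 of the sum of both strand columns. On reverse-strand counts CDK2 in KO esiHDAC4 was at 109, 123 and 103 CPM untreated and 95.5, 84.6 and 86.1 CPM with OXPT. In KO esiCT it was at 95.1, 112 and 109 CPM untreated and 99.6, 88.9 and 90.6 CPM with OXPT, with overlap. The groups also overlapped in KO #11 and WT. That column can hold reads of the genes on the other strand too.

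CDK6 (ENSG00000105810.10, chr7:92604921-92836573, minus strand), the other kinase of cyclin D, was not called in any arm. It was at 70.8, 71.7 and 35.4 CPM in KO esiCT untreated and at 101, 103 and 18.3 CPM with OXPT (0.32, SE 0.65, adjusted p = 0.797). In KO esiHDAC4 it was 79.5, 98.0 and 57.8 CPM untreated and 139, 104 and 29.2 CPM with OXPT (0.21, SE 0.65, adjusted p = 0.875). In KO #11 it was 69.1, 47.7 and 40.3 CPM untreated and 58.4, 49.8 and 34.4 CPM with OXPT (-0.14, SE 0.65, adjusted p = 0.927). In WT it was 33.2, 64.3 and 15.0 CPM untreated and 66.3, 55.2 and 9.94 CPM with OXPT (0.22, SE 0.65, adjusted p = 0.872). Replicate 3 was the lowest library for CDK6 in 8 of 8 groups.

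CDKN1B (ENSG00000111276.12, chr12:12685498-12722369, plus strand), the CDK inhibitor p27, was lower with OXPT in every arm and called in none. It was at 49.4, 41.3 and 56.3 CPM in KO esiCT untreated and 37.5, 22 and 26.2 CPM with OXPT, without overlap (-0.78, SE 0.29, adjusted p = 0.0858). In KO esiHDAC4 it was 64.6, 56.6 and 59.8 CPM untreated and 55.7, 24.2 and 40.6 CPM with OXPT, also without overlap (-0.59, SE 0.29, adjusted p = 0.203). In KO #11 it was 52.2, 68.4 and 58.0 CPM untreated and 29.5, 37.8 and 53.7 CPM with OXPT (-0.56, SE 0.29, adjusted p = 0.244). In WT it was 44, 57.6 and 47.0 CPM untreated and 29.8, 28.3 and 48.4 CPM with OXPT (-0.48, SE 0.29, adjusted p = 0.322). In KO #11 and WT the groups overlapped, through replicate 3 with OXPT. CDKN1B was called lower in KO esiCT without replicate 1 with OXPT (-1.04, adjusted p = 0.0355) or without replicate 2 of KO esiHDAC4 OXPT (-0.79, 0.0496).

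RB1 (ENSG00000139687.16, chr13:48303744-48599436, plus strand), which encodes the pocket protein that holds E2F in check, was not called in any arm. In KO esiCT it was 23.3, 25.7 and 21.3 CPM untreated and 29.5, 21.6 and 10.4 CPM with OXPT (-0.19, SE 0.55, adjusted p = 0.869). In KO esiHDAC4 it was 31.4, 37.8 and 28.3 CPM untreated and 41.4, 18.8 and 8.87 CPM with OXPT (-0.49, SE 0.55, adjusted p = 0.627). In KO #11 the untreated libraries were at 27.5, 29.2 and 30.1 CPM and those with OXPT at 17.7, 22 and 29.7 CPM (-0.32, SE 0.55, adjusted p = 0.775). In WT it was 17.5, 48.3 and 7.41 CPM untreated and 19.1, 20.9 and 6.51 CPM with OXPT (-0.66, SE 0.55, adjusted p = 0.503). The 3 WT libraries without OXPT thus spanned a wider range than those of any other group.

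Several libraries numbered 3 stood apart. RB1 and E2F7, with 6434 and 6291 bases of exon sequence, were lowest in replicate 3 in 6 of 8 groups, in each case all but the KO #11 groups, as CDK6, the longest of the 10 with 12239 bases, was in all 8. CDKN1B, the next longest with 9255 bases, was lowest in replicate 3 in 0 of 8 groups and highest in 3. CCND3, with 5761 bases, was lowest there in 1 group and highest in 4, and CCND1, with 4761 bases, was highest in 6. Among the 10 genes, length alone thus did not order them in replicate 3. Within each group, the median log2 deviation from the group mean was compared between the 25% of tested genes with most exon sequence and the 25% with least. Replicate 3 was shifted towards short genes, by -0.70 in KO esiCT OXPT, -0.49 in KO esiHDAC4 OXPT, -0.63 in WT OXPT and -0.76 in WT untreated. Replicate 2 of WT untreated, at 0.75, and replicate 1 of KO esiHDAC4 OXPT, at 0.48, lay as far towards long genes. In these groups replicate 3 was thus not the only library far from the group mean. In the KO #11 groups the shift of replicate 3 was 0.19 untreated and -0.03 with OXPT. The share of unmapped reads in replicate 3 of KO esiCT OXPT, KO esiHDAC4 OXPT, WT OXPT and WT untreated was 22.3%, 13.4%, 11.9% and 13.8%. The median over all 24 libraries was lower, at 9.29%. The part of these shifts in the values of CDK6, RB1 and E2F7 was not tested. Without replicate number 3 in any group, a choice made after seeing the data, CCND1 (0.67, adjusted p = 0.0343), CCND3 (0.62, 0.0184) and E2F7 (1.00, 0.038) were called higher in KO esiCT beside the lower E2F2. In the same setting E2F1 was called lower in KO esiHDAC4 (-0.97, adjusted p = 0.014), KO #11 (-0.82, 0.028) and WT (-0.82, 0.0305), E2F2 in WT (-1.08, 0.00279) and CDK4 in KO #11 (-0.82, 0.00118). In all, 4, 3, 3 and 3 members were then called in KO esiCT, KO esiHDAC4, KO #11 and WT, where 17.4%, 18%, 22.8% and 20.9% of all genes were.

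**Figure D3:**
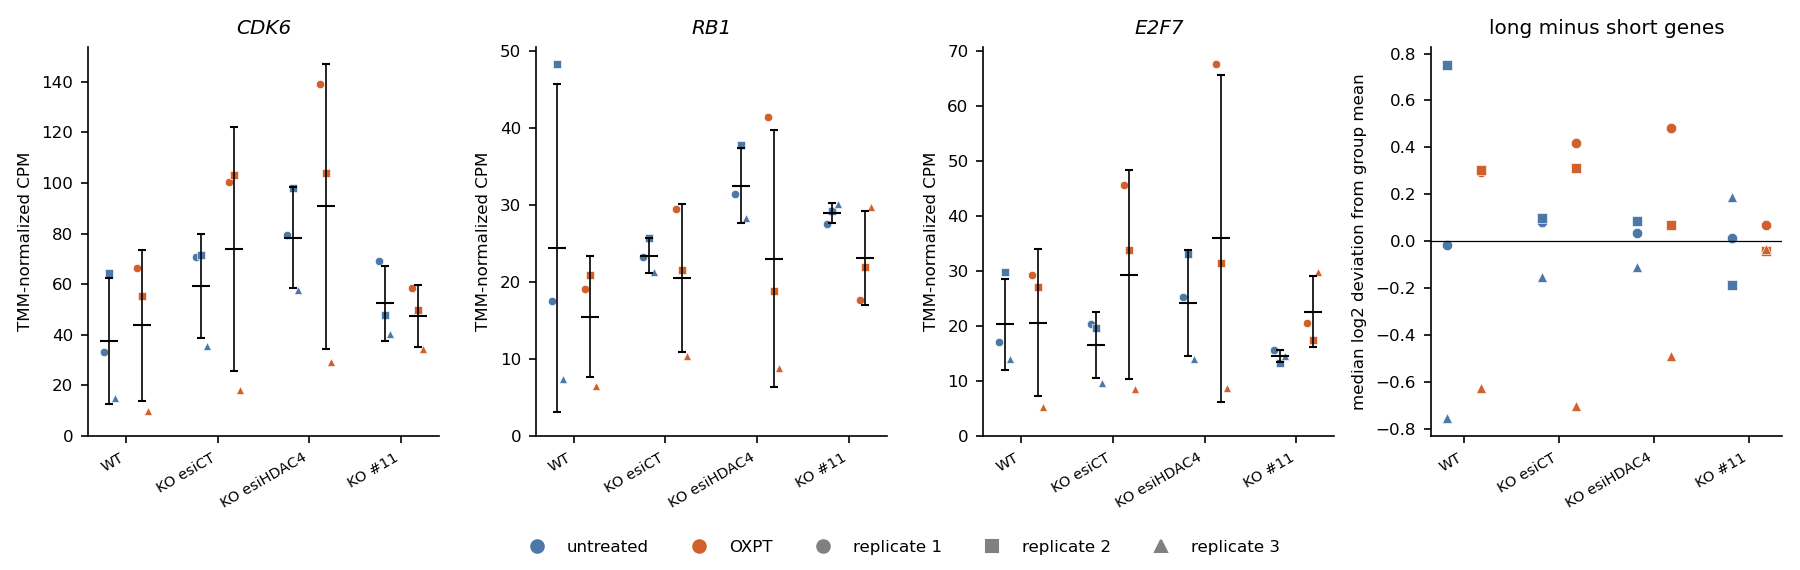
CDK6, RB1 and E2F7 as TMM-normalized CPM (left 3 panels, linear from 0, bars for mean and SD of 3 libraries) and the difference in median log2 deviation from the group mean between long and short genes (right panel), by arm, with shapes for the replicate number. Replicate 3 of KO esiCT OXPT, KO esiHDAC4 OXPT, WT OXPT and WT untreated lies low in all 4 panels, down to -0.76 on the right.

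Genes around the switch were described in lists written from general knowledge. CDKN1A, the p53-induced inhibitor p21, was called higher in all 4 arms, from 303 to 390.4 CPM to 2542 to 3752 CPM in KO esiCT (log2 fold change 3.18, SE 0.38). In KO esiHDAC4, KO #11 and WT its log2 fold change was 3.10, 2.55 and 2.55. In WT untreated, CDKN1A was at 381, 288 and 1221 CPM, with replicate 3 far above the others, and without that library the WT fold change was 11.1 in place of 5.85. It was called in all 4 arms whichever library was left out. Of 25 other genes of the G1 machinery, 23 were tested, and CDKN1A was the 1 called higher in each arm. CCNA2, the cyclin A of S phase, was the 1 called lower in KO esiCT (-1.37), KO esiHDAC4 (-1.73) and WT (-1.46), and none was called lower in KO #11. The medians of this list were -0.28, -0.13, -0.21 and -0.20 in KO esiCT, KO esiHDAC4, KO #11 and WT, beside medians of all genes of 0.01, 0.02, -0.00 and -0.06.

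Textbook targets of E2F mostly had negative values with OXPT, and few were called. Of 28 tested, 26 had a negative log2 fold change in KO esiCT, 25 in KO esiHDAC4, 24 in KO #11 and 25 in WT, with medians of -0.78, -0.86, -0.43 and -0.93. Called lower were 6, 4, 1 and 8 of the 28, against 5.08%, 5.54%, 3.57% and 5.6% of all genes, so that the 1 in KO #11 was no larger a share than the background. With any 1 library left out these counts ran from 0 to 7, 2 to 6, 0 to 4 and 4 to 8. The shares of all genes called with 1 library left out are not given here. The lowest counts included those without replicate 3 of KO esiCT OXPT (0), replicate 2 of KO esiHDAC4 untreated (2), replicate 2 of KO #11 untreated (0) and replicate 1 of WT untreated (4). Without number 3 in any group they were 14, 17, 14 and 21 of the 29 then tested. In that setting 17.4%, 18%, 22.8% and 20.9% of all genes were called, counted in both directions. Among those called, the lowest in KO esiCT were CCNA2 and the replicative helicase subunits MCM5 (-1.28) and MCM7 (-1.02). In KO esiHDAC4 CCNA2 and MYBL2, a transcription factor that acts with the MuvB complex (-0.98), were among them. The lowest called in WT were CCNA2, MYBL2 (-1.20) and CDC6, a helicase loader (-1.17). PCNA, the sliding clamp of DNA polymerase and also a p53 target, was called higher in all 4 arms (1.11, 1.04, 1.74 and 0.92). Of the DREAM and MuvB genes, 6 of 7 were tested, and all 6 were negative in each arm. MYBL2 was called lower in KO esiCT, KO esiHDAC4 and WT, and LIN52, a MuvB subunit, in WT (-1.24). The call of CCNA2 was lost without replicate 3 of KO esiCT OXPT in KO esiCT (adjusted p = 0.0587) and without replicate 2 of WT untreated in WT (0.0521). Those of MCM5, MCM7 and MYBL2 in KO esiCT were each lost without replicate 1 or 3 with OXPT or replicate 1 or 2 untreated (adjusted p = 0.054 to 0.132). In KO esiHDAC4 that of MYBL2 was lost without replicate 1 or 3 with OXPT or replicate 2 untreated (0.0576 to 0.0886), and that of LIN52 in WT without replicate 3 with OXPT or replicate 2 untreated (0.0691 and 0.0506). PCNA stayed called in all 4 arms whichever library was left out. Some genes, such as CCNA2 and MYBL2, stand in more than 1 list. With bulk RNA, fewer cells in S phase and less mRNA per cell cannot be told apart.

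Whether OXPT acted differently between arms was tested by the difference of the responses. None of the 10 genes was called by edgeR or by DESeq2 for KO esiCT minus WT, KO esiHDAC4 minus KO esiCT or KO #11 minus KO esiCT, and 0 had an unadjusted p under 0.05. Of all genes, 0% were called in each of the 3, with 201, 19 and 863 genes at an unadjusted p under 0.05. For E2F2 the differences were -0.15 (approximate 95% interval -0.94 to 0.64), -0.12 (-0.91 to 0.68) and -0.19 (-0.99 to 0.60). For CCND3 they were -0.10 (-0.76 to 0.56), 0.25 (-0.41 to 0.91) and -0.03 (-0.70 to 0.63). All 6 intervals hold 0. Calls of E2F2 or CCND3 in some arms and not in others therefore do not show that the arms differ.

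HDAC4 silencing left none of the 10 genes called. Of all genes, 0.00809% were called in untreated and 0% in OXPT-treated KO cells. By edgeR 394 and 380 genes had an unadjusted p under 0.05 there. Untreated, the log2 fold changes of esiHDAC4 against esiCT ran from -0.32 for CCND3 to 0.54 for E2F7, and with OXPT from -0.37 for E2F1 to 0.49 for CDKN1B. By edgeR 0 of the 10 had an unadjusted p under 0.05, and DESeq2 called 0. The approximate 95% intervals of CCND3 were -0.79 to 0.15 untreated and -0.54 to 0.39 with OXPT.

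The degrader #11 also left none of the 10 called against esiCT, by edgeR or DESeq2, where 0.51% of all genes were called in untreated and 0.121% in OXPT-treated KO cells. Untreated, the 10 log2 fold changes lay between -0.19 for E2F7 and 0.31 for CDK4, and 0 had an unadjusted p under 0.05. With OXPT they ran from -0.64 for CDK6 to 0.50 for CDKN1B (smallest unadjusted p of 0.0869, for CDK4). CDK6 was at 58.4, 49.8 and 34.4 CPM with #11 against 101, 103 and 18.3 CPM with esiCT. Without replicate number 3 in any group, CDK6 (-0.95, adjusted p = 0.0297) and E2F7 (-1.11, adjusted p = 0.0357) were called lower with #11 under OXPT, when 11.5% of all genes were called. E2F targets were below esiCT in 27 of 28 cases in untreated KO #11, with a median of -0.50. By edgeR 0 were called and 4 had an unadjusted p under 0.05. Among all 12356 genes, 1705 had an unadjusted p under 0.05 untreated and 1264 under OXPT. The 4 of 28 thus lie close to that background. Replicate 3 of KO #11 untreated was the lowest of its group for 23 of the 28, with MCM7 at 202 CPM against up to 526 CPM in that group. In KO esiCT untreated, replicate 3 was the lowest for 24 of the 28. Without replicate 3 of KO #11 untreated 20 of 28 were below esiCT, with a median of -0.27. In that group E2F1 and E2F2 themselves were at -0.00 and 0.24.

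Between KO esiCT and WT, 0.291% of all genes were called untreated and 0.138% under OXPT, and none of the 10 by edgeR or DESeq2. Untreated, the log2 fold changes ran from -0.43 for CDK4 to 0.65 for CDK6, with 0 at an unadjusted p under 0.05. Under OXPT they ran from -0.64 for CDK4 to 0.76 for CDK6. CDK4 was the 1 of the 10 with an unadjusted p under 0.05 (0.0136, adjusted p = 0.738). Of all genes tested, 709 had an unadjusted p under 0.05 untreated and 667 under OXPT. CDK4 was at 69.8, 59.8 and 36.8 CPM in KO esiCT OXPT and 71.6, 77.8 and 111 CPM in WT OXPT, without overlap. On reverse-strand counts the log2 fold change of CDK4 was -0.03 (adjusted p = 0.994).

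**Figure D4:**
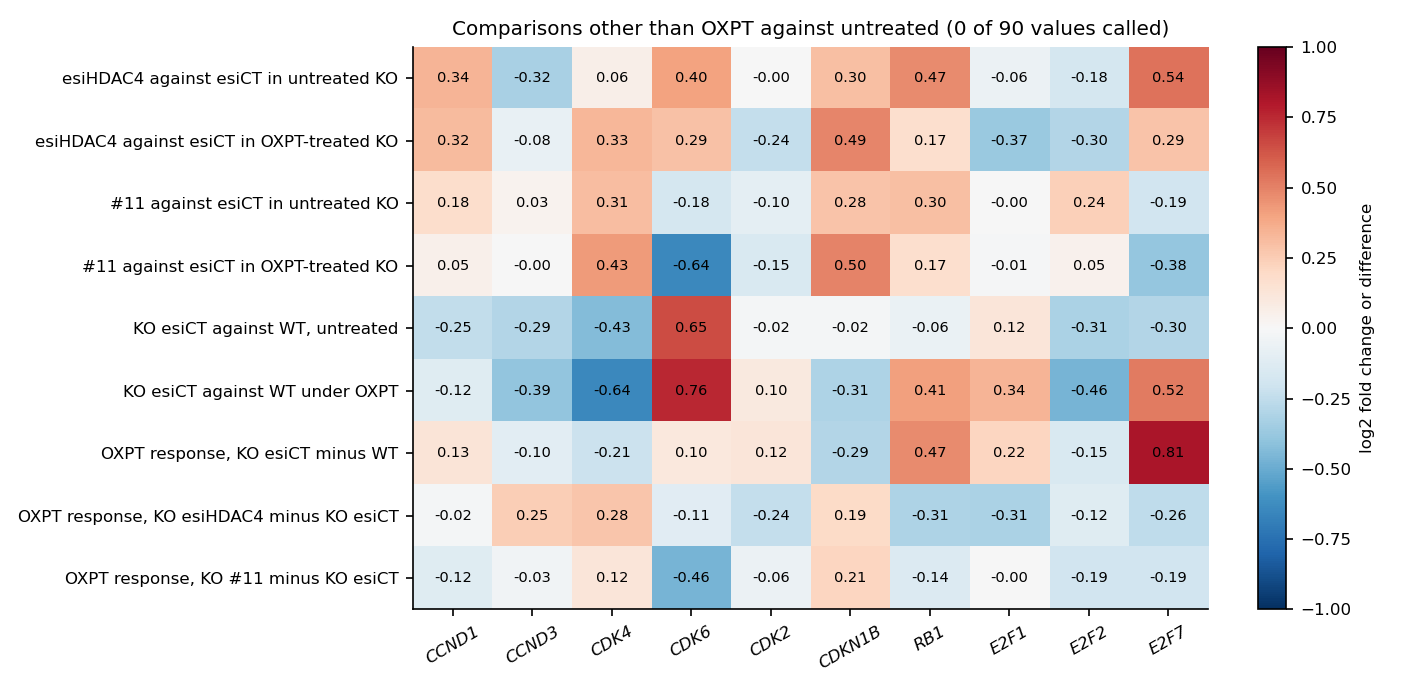
Log2 fold changes, or differences of OXPT responses in the lowest 3 rows, of the 10 genes (columns) in 9 comparisons other than OXPT against untreated (rows), coloured from blue (negative) to red (positive) with the value printed. Values run from -0.64 to 0.81 and none was called.

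Over the 8 group means of log2 CPM, some of the 10 moved together, as a description over groups that share their untreated and OXPT split. E2F1 and E2F2 had a Pearson r of 0.83, E2F2 and CDK4 of 0.87, and CDK4 and CDKN1B of 0.83. E2F1 ran opposite to CCND1 (r = -0.90) and to CCND3 (r = -0.88). CDK2 had no r beyond 0.40 in size with any of the others. Among all genes tested, DNAL1 (r = 0.99) and MYO19 (0.99) were among those most like E2F1. CCND3 was most like ZNF408 (1.00), IL4R (0.99) and SIRT6 (0.99). CCND1 was most like LYL1 (0.99), CDK4 like HNRNPC (0.98), CDK6 like TAB3 (0.99), CDKN1B like TUBGCP3 (0.99), and RB1 like ZBTB39 (0.99). E2F2 was most like ENSG00000243829 (0.99) and SFR1 (0.99), CDK2 like RPL4P5 (0.92), and PRMT9 (0.93) was closest to E2F7. These r values are taken over 8 points and chosen as the highest among 12356 genes, and no p is given.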

How the data were processed

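RNA-seq of HCT-116 cells was analysed from raw counts per gene, deposited by the authors as 1 file per library with unstranded, forward and reverse columns and no normalization. The submitters' processing notes name Trimmomatic 0.39, STAR 2.7.11a and hg38. The study's methods describe another route, with salmon, so these counts are not the values tested there. The kit label names a stranded kit, but reverse and forward columns held nearly equal totals in every library (ratio 1.00 to 1.02). The unstranded column was therefore used, where 4.25% of reads (median) lay on no gene and 11.2% were ambiguous. Why the label and the counts differ was not tested. Genes were named with GENCODE 44 (62639 of 62757 identifiers matched).

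Groups were taken from the labels. In R 4.3.3, edgeR 4.0.16 (TMM, quasi-likelihood F test, 1 coefficient per group, 24 libraries) tested genes that averaged 64 or more raw counts in any group. A call needed a fold change over 1.5 and an adjusted p under 0.05. Standard errors (approximate) are |log2 fold change| divided by the root of F, and log2 CPM had a prior count of 2. The 10 genes and the lists were chosen with earlier results of these data known. Named besides the 10 were genes called in a list, at most 3 highest and 3 lowest, CDKN1A, HDAC4 and FBXW7, and the 3 genes most like each. Alternatives were 7 settings, 24 left-out libraries and, added later, all libraries numbered 3 left out; DESeq2 1.42.0 was one. Numbers paired the libraries (every correlation of deviations over 0.1) in 8 of 10 comparisons of groups, but not for #11 against esiCT. Replicates differed beyond sampling noise (chi-square per degree of freedom 8.31 to 224). Results for 1 gene are not reported here.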

Additional observations from a re-analysis of the deposited data

How the results depend on the processing

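Members called, 1, 2, 1 and 1 for the OXPT responses in KO esiCT, KO esiHDAC4, KO #11 and WT, moved with the setting, but no call changed direction. With 1 library left out they ranged from 0 to 3, 1 to 3, 0 to 2 and 0 to 1. The share of all genes called is given above only for the main setting, DESeq2 and without number 3, and it differed between these. For the other settings it is not given, so changes in their member counts cannot be set against it. DESeq2 called 3 in KO esiCT and 2 in WT, reverse-strand counts 2 in WT, and the groups compared alone 2 in KO #11. In WT, 0 were called with RLE normalization, no count filter, at least 64 counts in every group or the groups compared alone, where the adjusted p of CCND3 was 0.0516, 0.138, 0.057 and 0.426. In KO esiHDAC4, DESeq2 and reverse-strand counts each added E2F1, and in KO #11 the groups compared alone added CCND3 (0.65, adjusted p = 0.0268). Without number 3, chosen after seeing the data, 4, 3, 3 and 3 were called, and 2 for #11 against esiCT under OXPT. With the replicate block the counts were 1, 2, 1 and 1, and no call changed. The other comparisons gave 0 under every setting run, apart from the 2 just named. The cause of these changes was not tested. With 3 libraries per group, small changes may be missed, most of all for CDK6, E2F7 and RB1, whose SE in the OXPT responses was 0.55 to 0.65.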

Other observations

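The 12 WT libraries with contradictory labels on OXPT are given as values only, over all 12. E2F2 ranged from 7.74 to 65.4 CPM (median 22.4) and E2F1 from 16.3 to 60.5 CPM (median 34.3). CCND3 ranged from 34.2 to 102 CPM (median 67.5), CCND1 from 393 to 1124 CPM (median 704) and CDK4 from 83.2 to 218 CPM (median 116). CDK6 ranged from 5.19 to 78.3 CPM (median 23.1), RB1 from 4.34 to 48.1 CPM (median 15.1) and E2F7 from 2.49 to 42.5 CPM (median 8.91). CDKN1B ranged from 29.7 to 73.6 CPM (median 53.7) and CDK2 from 55.6 to 107 CPM (median 78.2).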
